A study of Mus musculus with 4 samples.

Results

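Long miRNA reads were read out of the Ago proteins of mouse brain. They were the sequences that carried the name of a mature miRNA and had 25 nt or more, and they numbered 4701 of the 85704 sequences of the table and of its 40045 miRNA sequences. They belonged to 285 of 1029 miRNA names. The cortex and hippocampus of male C57BL/6J mice, a common inbred strain, were combined at the age of 2 months or 18 months. The Ago proteins were pulled down from 250 mg of this tissue with a peptide of GW182, a partner protein of Ago in the RISC, and RNA of 19 to 35 nt was cut from a gel and sequenced (Ago-RP-Seq). There were 2 libraries per age, none of them treated. Nothing used here says which animals a library came from, so the p-values measure the spread between these 4 libraries only. Values are given below for replicates 1 and 2 of the 2-month group and then of the 18-month group.

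A miRNA is cut from its hairpin by Drosha in the nucleus and by Dicer in the cytoplasm, and these cuts set the ends of the mature strand. A read can be longer than the reference mature sequence because a cut fell further along the hairpin, which leaves bases that match it (templated bases). It can also be longer because terminal nucleotidyl transferases added A or U to the finished 3' end (tailing). The 6mer seed, positions 2 to 7 counted from the 5' end, pairs with the target mRNA and is untouched by a change of the 3' end. Bases added at the 5' end move it.

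The name extended covers the members in part. For 7 miRNA names, among them miR-182-5p, miR-361-3p and miR-541-5p, the reference itself has 25 nt or more, and reads identical to the reference made up 9.49%, 14.0%, 17.1% and 12% of the extended CPM with a hairpin in the reference. CPM, the unit of the deposited table, is the read count of a sequence scaled to 1 common total in each library. The libraries rested on 9067007 to 11388999 reads, and 3 reads, the limit that a count of 0 allows, were worth 0.263 to 0.331 CPM. These limits and the intervals below cover counting error only. Of the members, 2802 had 25 nt, 1258 had 26 nt and 6 had 29 or 30 nt. In all 4 libraries 1424 members were present, and 606 were seen in 1 library. A mean of at least 1 CPM was reached by 375 members, which held 81.5% of the extended CPM.

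The mature sequences of the miRNAs with the most extended reads or the highest extended share follow, from RefSeq on GRCm38.p6, with the seed region (bases 2 to 8) in capitals. They are shown because their reads below differ from them only at the ends. miR-30c-5p and miR-30e-5p share their seed region, and no other 2 of these sequences do.
miR-138-5p: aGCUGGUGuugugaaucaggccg
miR-181a-5p: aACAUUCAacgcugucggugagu
miR-182-5p: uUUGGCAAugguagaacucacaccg
miR-222-3p: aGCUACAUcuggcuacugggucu
miR-342-3p: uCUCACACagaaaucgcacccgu
miR-451a: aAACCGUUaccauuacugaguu
miR-30c-5p: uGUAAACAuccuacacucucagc
miR-30e-5p: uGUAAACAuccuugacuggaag
miR-200a-3p: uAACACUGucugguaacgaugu
miR-541-5p: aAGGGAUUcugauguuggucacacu
miR-770-5p: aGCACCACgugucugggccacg
miR-425-5p: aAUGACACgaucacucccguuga
miR-361-3p: uCCCCCAGgugugauucugauuugu

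miR-138-5p lies in 2 hairpins, at chr9:122682898-122682920 in an exon of the pseudogene Gm47135 and at chr8:94324312-94324334 in an exon of the lincRNA C78859, both on the plus strand. miR-181a-5p also lies in 2 hairpins, at chr1:137966468-137966490 in an exon of the lincRNA A430106G13Rik and at chr2:38852741-38852763, antisense to an intron of Nr6a1. miR-182-5p lies at chr6:30165962-30165986 and miR-451a at chr11:78073186-78073207, outside every other gene of GENCODE M21. miR-342-3p is intronic in Evl at chr12:108658680-108658702, and miR-770-5p sits in an exon of the lincRNA Meg3 at chr12:109563710-109563731. miR-30e-5p is intronic in Nfyc at chr4:120772660-120772681. miR-222-3p lies at chrX:19146901-19146923 outside every other gene, miR-425-5p in an exon of the lincRNA 4833445I07Rik at chr9:108568789-108568811, miR-541-5p in an intron of the lincRNA Mirg at chr12:109742422-109742446 and miR-361-3p in an intron of Chm at chrX:113074827-113074851. miR-200a-3p is intronic in Ttll10 and Gm13648 at chr4:156054911-156054932. miR-30c-5p lies in 2 hairpins, in an intron of Nfyc at chr4:120769584-120769606 and in an exon of the lincRNA Gm27028 at chr1:23291714-23291736.

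Extended reads were a small part of the miRNA reads in the RISC at both ages, and their share was lower in both 18-month libraries by a small amount. It was 0.531% (95% Wilson interval 0.526% to 0.535%) and 0.527% (0.522% to 0.531%) at 2 months, and 0.469% (0.464% to 0.473%) and 0.509% (0.504% to 0.513%) at 18 months. The ages did not overlap. The difference of the means was -0.040 percentage points, from 0.529% ± 0.00276 (SD, n = 2) to 0.489% ± 0.0283 (SD, n = 2). The exact permutation test, two-sided, gave p = 0.33, the smallest value that 2 libraries against 2 allow. The difference was -0.0116 without miR-138-5p, -0.020 without replicate 1 of the 18-month group and -0.0046 as the median share over miRNAs of at least 1000 CPM. The ages overlapped for this median, from 24 nt and when sequences whose mean fell short of 1 CPM were left out. In CPM, the extended reads summed to 5127, 5088, 4530 and 4910. Reads fell off steeply with length. Those of 24 nt held 2.67% to 2.95% of the miRNA CPM, those of 25 nt 0.392% to 0.439%, those of 26 nt 0.0594% to 0.0754% and those of 27 nt 0.0111% to 0.0141%.

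A few miRNAs supplied most of these reads. The first 4 names, miR-138-5p, miR-181a-5p, miR-182-5p and miR-222-3p, held 44.2%, 44.6%, 45.3% and 50.5% of the extended CPM. The first 10 held 60.1% to 66.9%, and 21 names held 80% of it. miR-138-5p, a neuronal miRNA known from dendritic spines, had 772 and 805 CPM of extended reads at 2 months and 366 and 628 CPM at 18 months, so both libraries of old mice were lower. miR-181a-5p had 587, 421, 498 and 950 CPM, and its highest library was replicate 2 of the 18-month group. miR-182-5p, a member of the miR-183 cluster of sensory cells, had 426, 653, 713 and 558 CPM. miR-222-3p had 481, 388, 476 and 345 CPM. The ages overlapped for the last 3.

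The extended share differed widely between miRNAs. Over the 273 names with a mean of at least 100 CPM, the extended share had a median of 0.0663% and a maximum of 14.8%. In 32 names it was over 1%, in 10 names over 5%, and in 75 names no extended read was seen. Spearman's rho between total CPM and extended share was 0.209 across these names, which share their libraries. The seed families had other shares among the extended reads than among the shorter ones. The miR-181 seed had 14.2%, 10.1%, 12.7% and 22.2% of the extended reads and 1.91% to 2.22% of the shorter miRNA reads. The miR-138 seed had 7.44% to 15.4% of the extended and 0.878% to 1.33% of the shorter reads, and the miR-182 seed 8.27% to 15.7% against 0.341% to 0.819%. The opposite held for the seed of let-7, with 1.09% to 1.83% of the extended and 8.30% to 10.2% of the shorter reads. The miR-124 seed likewise had 0.473% to 0.595% of the extended and 6.18% to 9.55% of the shorter reads. The 5p arm held 60.2% to 69.2% of the extended CPM and 43.0% to 46.9% of the shorter.

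The highest extended shares among the 273 names were in miR-541-5p, miR-770-5p, miR-182-5p, miR-451a, miR-425-5p, miR-3102-3p, miR-342-3p and miR-361-3p. miR-541-5p, from the imprinted Dlk1-Dio3 region like miR-770-5p, had 16.4%, 16%, 14.1% and 12.1% of its reads at 25 nt or more. miR-770-5p had 11.6%, 17.3%, 10.1% and 17.2%, a range that was as wide within an age as between the ages. miR-451a was steady at 10.1%, 11.5%, 11.1% and 10.1%. miR-425-5p had 11.4%, 10.4%, 10.2% and 7.25%. In 3 of these 8 names, miR-541-5p, miR-182-5p and miR-361-3p, the reference has 25 nt, so that the full mature strand counts as a long read there. Among the names with a RefSeq mature sequence, the median share was 0.0941% in 5 names with a reference of 20 nt, 0.0162% in 44 of 21 nt, 0.0531% in 138 of 22 nt, 0.402% in 41 of 23 nt, 2.21% in 5 of 24 nt and 13.2% in 3 of 25 nt.

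Most of the extended CPM ended in U. The 3' base was U in 64.9%, 63.8%, 57.0% and 65.9% of the extended CPM, A in 20.7%, 16.8%, 20.3% and 17.0%, G in 11.3%, 16.9%, 19.9% and 15.2%, and C in 3.11%, 2.53%, 2.80% and 1.97%. The ages overlapped for each of the 4 bases, and the exact permutation tests gave p = 0.667 to 1 (1 for each after Benjamini-Hochberg adjustment over the 4). Reads of 19 to 24 nt ended less often in U (45.2% to 49.9%) and more often in C (12.3% to 15.2%) in each library. Reads of 24 nt ended in U in 63.1% to 68.0%. In miR-182-5p, whose reference ends in G, 90.6% of the extended CPM did so too. Of the 53 names with a mean of at least 10 CPM of extended reads, U led in 40, A in 10, G in 2 (miR-182-5p and miR-451a) and C in 1 (miR-668-3p).

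Matching each read to the RefSeq hairpins of its miRNA separated bases that match the hairpin from bases that do not. It was possible for 235 of the 285 names, 3843 members and 89.2% to 91.6% of the extended CPM. The whole read lay inside the hairpin for 46.4%, 48.3%, 49.6% and 52.2% of this CPM. A tail of U only held 18.8% and 22.1% in young mice, and 13.4% and 17.7% in old mice, and a tail of A only held 8.90%, 7.70%, 8.68% and 8.18%. Other endings, such as AU or UA, held 13.3% to 14.6%. In the rest, 11.4%, 8.56%, 15.0% and 8.71%, the 5' part did not match. A last U was not particular to the tails. It ended 69.1%, 58.5%, 55.7% and 67.5% of the templated CPM and 66.3%, 70.8%, 59.3% and 68.3% of the CPM with an unmatched tail. Where the 5' part did not match it ended 55.4% to 62.7%. The U tails and the other endings were lower in both libraries of old mice and the templated reads higher, with differences of the means of -4.92, -0.688 and 3.59 percentage points, and for each the exact permutation p was 0.33 (0.556 adjusted over the 5 classes). The ages overlapped in U tails from 24 nt (-0.728), from 26 nt (-7.06), with equal weights (-2.62) and without miR-181a-5p (-4.29), and leaving out 1 library gave -2.78 (without replicate 1 of the 18-month group) to -7.06 (without replicate 2 of that group). Without miR-181a-5p the difference of the templated reads was 0.998 and the ages overlapped, and the other endings differed by -0.0799 without replicate 1 of the 2-month group. In each library 15.7% to 27.1% of the matched CPM was templated with U as the only added base, and there a templated U and an added U cannot be told apart. The same holds for a last U or A that equals the hairpin base, as in the leading templated reads of miR-222-3p, miR-342-3p and miR-425-5p. Tails of 1 unmatched base made up 47.2% to 52.6% of the tailed CPM, tails of 2 bases 24.5% to 30.0%, and tails of 4 or more bases 2.86% to 3.13%. By number of sequences the order was another: 200 members were templated, 297 had a U tail, 251 an A tail, 992 another tail, and 2103 had an unmatched 5' part.

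The reads that lead the members are written below with the bases past the reference 3' end in capitals, to show the endings with the highest CPM. They are given in the letters of the sequenced DNA (T for U).
miR-181a-5p, templated: aacattcaacgctgtcggtgagtTT
miR-182-5p, the reference: tttggcaatggtagaactcacaccg
miR-138-5p, templated: agctggtgttgtgaatcaggccgTT
miR-138-5p, U tail: agctggtgttgtgaatcaggccgTTT
miR-138-5p, U tail after an A: agctggtgttgtgaatcaggccgAT
miR-222-3p, templated: agctacatctggctactgggtctCT
miR-222-3p, A tail: agctacatctggctactgggtctCA
miR-342-3p, templated: tctcacacagaaatcgcacccgtCA
miR-342-3p, U tail: tctcacacagaaatcgcacccgtCT
miR-425-5p, templated: aatgacacgatcactcccgttgaGT
miR-451a, templated: aaaccgttaccattactgagttTAG
miR-451a, templated: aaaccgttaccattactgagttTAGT
miR-30e-5p, U tail: tgtaaacatccttgactggaagCTT
miR-30c-5p, U tail: tgtaaacatcctacactctcagcTT
miR-770-5p, U tail: agcaccacgtgtctgggccacgTGT

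The same stretch of the hairpins, with the 6 bases that follow the mature strand in capitals, shows what a longer cut would leave.
Mir138-1: agcugguguugugaaucaggccgUUGCCA
Mir138-2: agcugguguugugaaucaggccgACGAGC
Mir181a-1: aacauucaacgcugucggugaguUUGGAA
Mir222: agcuacaucuggcuacugggucuCUGGUG
Mir342: ucucacacagaaaucgcacccguCACCUU
Mir425: aaugacacgaucacucccguugaGUGGGC
Mir451a: aaaccguuaccauuacugaguuUAGUAA
Mir30e: uguaaacauccuugacuggaagCUGUAA
Mir770: agcaccacgugucugggccacgUGAGCA

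In several miRNAs with a reference of 23 nt, a templated extension of 2 bases was the leading long form. For them it is the shortest extension that the limit of 25 nt admits. In miR-138-5p the reads of 24 nt had a mean of 1519 CPM and those of 25 nt 454 CPM. In miR-181a-5p these means were 698 and 567 CPM. The sequence of miR-181a-5p with 2 added bases had 509, 372, 431 and 848 CPM and made up 87.9% of the extended reads of that miRNA. The corresponding sequence of miR-425-5p had 123, 114, 98.3 and 54.6 CPM (94.5%). That of miR-138-5p had 345 and 370 CPM in young mice, and 156 and 284 CPM in old mice, and its log2 change was -0.76 ± 0.34 (SE), which did not pass the test (limma, adjusted p = 0.495). That of miR-222-3p had 221, 172, 221 and 149 CPM, and that of miR-342-3p had 156, 135, 102 and 89.4 CPM. The ages overlapped for miR-181a-5p and miR-222-3p and were apart, with the old mice lower, for the other 3. The reference sequence of miR-182-5p had 371, 576, 645 and 496 CPM and made up 88.8% of its extended reads.

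Past these 2 bases few reads of the first 3 miRNAs below followed the hairpin. Of the miR-138-5p reads that went on after UU (86.7 CPM on average, against 289 CPM that stopped there), the next base was U in 85.4% and that of the hairpin Mir138-1 in 1.56%. For miR-181a-5p the next base was U in 93.8% and that of its hairpins in 2.26% of 38.2 CPM. For miR-222-3p it was U in 78.8%, A in 19.1% and that of the hairpin in 1.68% of 25.7 CPM. The form of miR-138-5p that ends in 3 U had 73.4, 98.1, 25 and 72.9 CPM, and that of miR-222-3p in which A follows the first added base 68.3, 49.1, 81.6 and 54.5 CPM. miR-425-5p had 3.27 CPM of reads longer than its templated form, 43.9% with U and 36.8% with the base of the hairpin. The next base of miR-451a was that of its hairpin in 99.5% of 152 CPM.

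The hairpins of miR-138-5p differ in the base after the mature strand, so its first added base can point to a hairpin. Other names were not compared in this way. Reads that began with the whole reference were followed by U in 533, 573, 238 and 450 CPM, as in Mir138-1, and by A in 146, 133, 75.3 and 101 CPM, as in Mir138-2. The A was thus 18.2% to 23.8% of these reads in each library. An A added to a strand of either hairpin reads the same. After the A, the second base of Mir138-2 was seen in 0.441 to 2.02 CPM, and the form that ended in AU had 77.3, 66.3, 33.7 and 51.0 CPM. Its A equals the base of Mir138-2, so this form was classed as a U tail. The miR-222-3p form that ended in AU was classed under other endings.

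miR-451a is the known case of a miRNA made without Dicer: its precursor is sliced by Ago2 and then trimmed from the 3' end. Its reads formed a ladder along the hairpin, and 98.0% of its extended CPM was templated. At 23 nt it had 370, 739, 577 and 877 CPM, at 24 nt 18.9, 52.5, 62.0 and 72.7 CPM, at 25 nt 43.5, 129, 81.0 and 106 CPM, at 26 nt 43.5, 77.6, 65.6 and 60.9 CPM, and at 27 nt 1.24 to 2.87 CPM. The leading sequences of 25 and 26 nt held 57.2% and 39.8% of its extended reads. The level at 25 nt was above that at 24 nt in each library. The leading form of 26 nt ended in U. Among the Drosha-independent miRNAs, miR-702-3p had the highest share, 24%, 26.9%, 23.6% and 24.8% of 36.9 to 60.8 CPM, with 90.9% of it in the 1 sequence that ends in AGT after the reference. The RefSeq hairpin ends with the mature strand, at an exon of Plod3, so the template of these bases was not tested. miR-320-3p had 2.04%, 2.14%, 1.48% and 1.90%, miR-1224-5p 0.939% to 1.23% and miR-484 0.0677% to 0.188%. miR-877-5p had 0.477 and 0.095 CPM of extended reads in replicate 1 of each age, which is 5 reads and 1 read, and 0 in replicate 2. Of 6 members of the Drosha-independent miRNAs and 2 of miR-451a tested between the ages by limma (unadjusted p under 0.05), 0 were called, against 10.1% of all sequences tested, and the medians of the log2 change were -0.34 and 0.21.

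In the miR-30 family, whose members share a seed, most extended CPM of miR-30a-5p, miR-30c-5p and miR-30e-5p ended in an unmatched tail. miR-30c-5p had 141, 153, 93.7 and 146 CPM of extended reads, 43.9% of them with a U tail, 23% with an A tail and 6.22% templated. miR-30e-5p had 112, 169, 90.3 and 136 CPM, with 66.6% U tails and 5.65% templated reads. miR-30a-5p had 79.8, 98.3, 80.5 and 93.4 CPM, with 69.2% U tails. miR-30d-5p had 119, 112, 105 and 94.7 CPM, and 76.3% of it ended in U. miR-30b-5p had 5.97 to 14.8 CPM. In the leading sequence of miR-30e-5p the unmatched U followed 2 templated bases (CU), and this sequence held 63.5, 111, 51.1 and 80.8 CPM. The leading sequence of miR-30c-5p held 58.4, 65.8, 33 and 62.9 CPM. miR-770-5p was of the same kind, with 81.6% U tails, and its leading sequence held 21.1, 76.3, 28.9 and 59.3 CPM. That of miR-30d-5p, with no hairpin to match, held 70.2, 65.5, 56.5 and 53.8 CPM. In the let-7 family, 8 of 9 names had extended reads, at 0.140%, 0.122%, 0.111% and 0.0993% of the family's CPM. let-7b-5p held most of them, with 77.2 and 70.2 CPM in young mice, and 46.0 and 42.7 CPM in old mice, and miR-98-5p had none. Of 17 let-7 members tested, 1 was called, lower at 18 months, which is no more than the 10.1% of all sequences, and their median log2 change was -0.46.

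Other neuronal miRNAs had small extended shares. miR-124-3p, the leading neuron-specific miRNA, had 159, 119, 124 and 111 CPM of extended reads in 69405 to 107034 CPM, or 0.111% to 0.160%. They were spread over 387 members, the most of any name, and the first held 8.18%. The share was 0.125% to 0.168% in miR-9-5p, and miR-128-3p had 3.22 to 5.29 CPM of extended reads. No extended read of miR-219a-2-3p, an oligodendrocyte miRNA, was seen at a mean of 846 CPM. Of the 8 brain miRNAs looked at, miR-138-5p alone exceeded a share of 1% in every library. Of their 69 members tested, 4 were called, all lower and all of miR-138-5p, a share below the 10.1% of all sequences.

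Reads with unmatched bases in front of the 5' end were the most diverse members. Where these bases came from was not tested. In 91.1% to 93.1% of the CPM whose 5' part did not match, the rest of the read matched the hairpin once the first 1 to 5 bases were left off. The 2 leading additions were AA (51.4, 49.0, 61.7 and 35.2 CPM over 51 names) and A (36.5, 25.9, 32.2 and 29.3 CPM over 30 names). miR-200a-3p led with 58.6, 63.3, 141 and 71.1 CPM in 202 sequences, and miR-29a-3p followed with 43.3, 20.8, 74.5 and 42.6 CPM in 182 sequences. These counts take in all reads with an unmatched 5' part. In both the highest library was replicate 1 of the 18-month group. Of the extended CPM of miR-29a-3p, 98.9% had an unmatched 5' part. Examples are given with the bases outside the reference in capitals.
miR-200a-3p: AAtaacactgtctggtaacgatgtT
miR-200a-3p: AGtaacactgtctggtaacgatgtT
miR-200a-3p: CAGtaacactgtctggtaacgatgtT
miR-29a-3p: CGAtagcaccatctgaaatcggtta
miR-29a-3p: ATGGtagcaccatctgaaatcggtt
miR-30c-5p: CtgtaaacatcctacactctcagcT

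Such an addition changes the seed and with it the 6mer seed viability, the mean viability of 3 mouse cell lines that received a duplex with that seed, in percent of the control (a low value is a toxic seed). In miR-29a-3p the 174 sequences with 1 to 5 added bases carried seeds of 7.40% to 99.6% viability, with a CPM-weighted mean of 49.5% against 49.4% for the shorter reads. In 179 such sequences of miR-200a-3p the mean was 71.5% against 64.8%, and in 137 of miR-138-5p 45.2% against 35.0%. Over all members, 87.1%, 90.1%, 83.3% and 90.1% of the CPM with a hairpin began at the reference 5' end. The mean seed viability of the members was 60.3% and 59.3% in young mice, and 61.8% and 63.1% in old mice, and that of the shorter miRNA reads was 57.7% to 58.4%. The ages did not overlap for the members, the means were 59.8% ± 0.741 (SD, n = 2) and 62.4% ± 0.956 (SD, n = 2), and the exact permutation test gave p = 0.33. The difference of 2.62 percentage points was 1.35 without miR-138-5p, where the ages overlapped, 1.22 without miR-181a-5p and 0.0426 with miRNAs weighted equally, where they overlapped too.

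Between the ages, a share of extended sequences near that of all sequences was called by limma, and more of these were lower than higher in old mice. Of 375 members tested by limma on log2(CPM + 1), 36 (9.60%) passed an unadjusted p under 0.05, against 10.1% of all 14287 sequences tested. Of these, 11 were higher (2.93%, against 5.87% of all) and 25 lower (6.67%, against 4.23% of all). No member passed after Benjamini-Hochberg adjustment, and the smallest adjusted p was 0.313, against 0.042% of all sequences that did. edgeR's quasi-likelihood test called 34 members (9.07%, against 9.52% of all sequences). DESeq2 called 14 (3.73%, against 6.59% of all), 7 higher and 7 lower. The median log2 change was -0.17 in the members and -0.01 in all sequences tested, and 61.3% of the members lay below 0 against 50.9% of all. The 64 members with a U tail had a median of -0.43, with 7 called, all lower. The 48 members with an unmatched 5' part had a median of 0.21, with 4 called, all higher. Both counts of calls are near the 10.1% of all sequences, and members of the same miRNA are not independent. Among all their members tested, miR-200a-3p and miR-29a-3p, which lead the unmatched class, had 2 higher calls each. The lower calls rested in part on replicate 1 of each age, and fewer were left without either. Without that of the 2-month group the median log2 change was -0.12 in the members and 0.02 in all sequences tested. Without that of the 18-month group these medians were -0.14 and -0.01.

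The called falls of largest CPM were in 4 miRNAs. The U-tailed sequence of miR-342-3p, from an intron of Evl, fell from 73.2 and 85.5 CPM to 43.7 and 31.1 CPM (log2 change -1.08 ± 0.32 (SE), limma, adjusted p = 0.335). All extended reads of miR-342-3p had 240, 235, 157 and 128 CPM in 3328, 3191, 2648 and 2021 CPM of all its reads. The sequence of miR-138-5p that ends in AU had 77.3 and 66.3 CPM, then 33.7 and 51.0 CPM (-0.77). The miR-138 seed had 1.07%, 1.33%, 0.878% and 0.880% of the shorter miRNA reads, so the shorter reads were lower in old mice too. In miR-127-3p, from the Dlk1-Dio3 region, a sequence with 3 U after the reference had 23.9, 26.3, 14.1 and 13.6 CPM (-0.82) and one ending in UAU 20.1, 14.1, 11.7 and 6.40 CPM (-0.88). The leading extended sequence of miR-3102-3p had 20.5, 26.2, 15.8 and 9.26 CPM (-0.88). These 5 passed the unadjusted test and none the adjusted one.

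The rises were in sequences of low level. The miR-181a-5p sequence with UA after the reference had 5.72 and 2.63 CPM in young mice, and 8.51 and 13.9 CPM in old mice (log2 change 1.27 ± 0.41 (SE), limma, adjusted p = 0.374). A miR-26a-5p sequence ending in UAU had 3.05, 2.20, 6.15 and 4.63 CPM (0.82), and a miR-770-5p sequence ending in UAU 1.24, 1.93, 3.78 and 7.94 CPM (1.35). The sequence of miR-200a-3p that starts with CAG had 0.572, 2.02, 7.28 and 2.21 CPM (1.24). These changes take in the level of the whole miRNA, and the miR-200a seed had 1.60%, 3.10%, 3.19% and 4.18% of the shorter miRNA reads. That of miR-29a-3p that starts with CGA had 2.00, 0.176, 3.97 and 4.19 CPM (1.43), where 0.176 CPM is 2 reads. The miR-29 seed had 4.44%, 4.74%, 5.16% and 8.04% of the shorter miRNA reads, so these were higher in old mice too. The library at the top differed from sequence to sequence.

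The extended share within a miRNA removes the level of the miRNA from the comparison. Of 273 names tested by limma on the log2 ratio of extended to other CPM (with 1 CPM added to each), 28 (10.3%) passed without adjustment. At 18 months 21 of them were higher (7.69%) and 7 were lower (2.56%). This count cannot be read as one of extended reads: 24 of the 28 had a mean under 1 CPM of extended reads, where the added 1 CPM outweighs the reads, and the 1 name that passed after adjustment, miR-296-5p, had no extended read at all. Of the 5 highest rises by the rule, miR-298-5p had a lower extended share at 18 months (0.225% and 0.203%) than at 2 months (0.576% and 0.821%), and miR-126a-3p, miR-543-3p, miR-487b-3p and miR-380-3p had at most 1.65 CPM of extended reads in a library. Among the 5 largest falls, miR-328-3p had 0.344%, 0.285%, 0.171% and 0.152%, miR-29a-5p 3.79%, 3.32%, 1.38% and 2.17%, and miR-652-3p 0.109%, 0.210%, 0.0550% and 0.0561%. The falls of miR-200b-5p and miR-344-3p rested on at most 0.878 CPM.

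Of the 52 names with a mean of at least 10 CPM of extended reads, 7 passed the unadjusted test (13.5%), 6 of them lower (11.5%). This limit was set after seeing the counts above. Over all 273 names the shares called were 10.3% and 2.56%, and most of those calls had under 1 CPM of extended reads. Of the 52, 38 had a log2 change below 0. None passed after adjustment by limma, where the smallest adjusted p was 0.292. miR-182-5p had extended shares of 15.8% and 16.2% in young mice, and 11.5% and 11.4% in old mice (log2 change -0.56 ± 0.15 (SE), limma, adjusted p = 0.292). Its reads of all lengths had 2692, 4033, 6191 and 4902 CPM, so the share was lower while the extended CPM overlapped between the ages. The reference of 25 nt made up 88.8% of its extended reads, so this share is mainly that of the full mature strand. miR-30c-5p had 1.44% and 1.46%, then 0.881% and 1.03%, and miR-30e-5p 1.67% and 2.21%, then 1.10% and 1.34%. miR-221-3p had 0.33% and 0.303%, then 0.214% and 0.192%. let-7b-5p had 0.540% and 0.549%, then 0.380% and 0.347%, and miR-145a-5p 0.429% and 0.607%, then 0.314% and 0.331%. miR-181c-5p was the 1 name higher at 18 months, with 0.739% and 0.749%, then 1.07% and 1.44%. Without 1 library the number called was 6, 1, 7 or 9, and 1 to 3 of the 7 names were among them: 1 was left without replicate 2 of the 2-month group.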

How the data were processed

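Small RNAs of 4 Ago pull-downs were measured, 2 libraries per age, and grouped by the sample labels. The authors trimmed the reads (Trim Galore per the labels, version not given in the sources used here), dropped rare ones, assigned the remainder to known mouse small RNAs with BLAST and deposited CPM per sequence and library. They also deposited a viability score for each seed and a signal column, the sum over the libraries, which was not used. Removal of rare reads bounds what the table shows of rare long forms. From the deposited CPM, whole reads were recovered (100% of the nonzero values lay within 0.1 read, plus rounding, of a whole number), and the libraries rested on 10484940, 11388999, 10575081 and 9067007 reads. Replicates differed by more than sampling noise (chi-square per degree of freedom 9.68 and 12.4 over members with at least 20 reads in a pair).

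Each read was matched to the RefSeq hairpins (GRCm38.p6) of its miRNA by its longest 5' part of at least 16 nt. A read was called templated if all of it lay inside a hairpin. Gene context came from GENCODE M21. Main tests were limma with a trend on log2(CPM + 1) over sequences whose mean reached 1 CPM, limma on log2 ratios over miRNA names whose mean reached 100 CPM, and exact permutation tests, two-sided, of library values. Alternatives were other length limits, pseudocounts and filters, edgeR, DESeq2, rescaling by the median of ratios, a replicate block, and leaving out each library. Fits were tested on simulated data. The members and lists were chosen with earlier results of these data known. Named were the 10 miRNAs with the highest extended CPM, the 8 with the highest share, up to 5 rises and 5 falls of shares and of sequences (unadjusted p under 0.05, ages apart), the 12 top sequences and the fixed lists (let-7, brain, Dicer- and Drosha-independent miRNAs). Other names were chosen after their values were seen. The fits used DESeq2 1.42.0, edgeR 4.0.16 and limma 3.58.1 under R 4.3.3, and the rest Python 3.11.15 and scipy 1.17.1.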

Additional observations from a re-analysis of the deposited data

Results flagged for a closer look

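Data outside the comparisons held 163 sequences of 25 nt or longer that matched a miRNA hairpin but carried no mature name. Their mean level was 33.4 CPM, with 31.5, 36.4, 30.3 and 35.5 CPM in the 4 libraries, above the 0.263 to 0.331 CPM that a count of 0 allows. The highest of them had a mean of 0.830 CPM. With 2 libraries per age, no library could be checked for standing apart from its group.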

How the results depend on the processing

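The age differences of the library measures were small and several turned. For reads ending in A, main difference -0.122 percentage points, it was 0.133 from 24 nt, 0.591 from 26 nt, 2.44 with miRNAs weighted equally, 0.520 without the miRNAs with a long reference, 0.803 without miR-181a-5p and 0.598 without miR-182-5p. The templated share (3.59) was -2.11 from 24 nt and -0.145 with equal weights. Other endings (-0.688) gave 1.24, 1.14 and, without miR-181a-5p, 0.10, and A tails (0.133) gave -0.0831 from 26 nt and -0.265 without miR-222-3p. Leaving out 1 library gave ranges of -2.10 to 1.86 for A, -7.31 to 1.55 for U, -0.467 to 0.733 for A tails, -1.25 to 5.04 for an unmatched 5' part and -5.23 to 1.52 for the reference start.

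Of the member sequences, 114 were called with no filter (47 higher, 67 lower; 2.43%, against 3.88% of all sequences), 6 with a minimum of 10 CPM (0 higher, 6 lower; 11.1% against 13.5%), 14 by DESeq2 (7 and 7; 3.73% against 6.59%), 127 from 24 nt (54 and 73; 9.15% against 10.1%), 8 from 26 nt (3 and 5; 9.52% against 10.1%), and 26 to 35 without 1 library (10 to 12 higher, 15 to 25 lower). Of the extended shares, 101 were called with no filter (73 and 28), 9 with a minimum of 1000 CPM (5 and 4), 7 (1 higher) with at least 10 CPM of extended reads, and 18 to 30 without 1 library (10 to 21 higher, 6 to 9 lower). Of the same 273 names, 12 were higher with a pseudocount of 0.1 CPM and 12 lower with 5 CPM. From 24 nt 10 were higher and 17 lower, and from 26 nt 15 lower. The replicate block gave 39 called sequences (10.4%, against 10.7% of all) and 11 lower shares of the 273. The replicates share only a number: the deviations of same-numbered libraries correlated at 0.141 over the 375 members.

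Leaving out 1 library turned the log2 change of 7 leading sequences, with ranges of -0.014 to 0.96 (miR-181a-5p), -0.025 to 0.61 (miR-182-5p), -0.39 to 0.18 and -0.086 to 0.49 (miR-222-3p), -0.47 to 1.08 and -0.30 to 0.52 (miR-451a) and -0.78 to 0.017 (miR-30e-5p). The ratio of miR-298-5p was -0.84 with a pseudocount of 0.1 CPM, and that of miR-328-3p 0.39 from 26 nt. The causes were not tested. With 2 libraries per age the exact permutation test of a library measure cannot reach 0.05.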
